A study of Mus musculus with 121 samples.

Results

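8 mouse genes of acute inflammation and neutrophils were followed on 1-colour arrays in 6 transplanted tumours after gamma rays or carbon ions. They were the chemokine genes Cxcl2, Cxcl3 and Ccl3, the cytokine gene Csf2, the pentraxin gene Ptx3, the calprotectin genes S100a8 and S100a9 and the stefin gene Stfa3. Each was taken as the brightest probe carrying its symbol with a value on at least 90% of arrays. Since each gene had 1 probe, brightness made no choice, and all 8 passed the filter on dim probes among 12962 genes tested. The set was chosen by measured values, since the genes were proposed with earlier results of the same arrays known. Those results included S100a9 in the gamma mean at day 1 and in the fibrosarcoma nfsa at day 1. Those values, and the S100a9 values of all single groups at gamma day 1, are therefore given as a description with no p.

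All hosts were male C3H/HeMs mice carrying a tumour in the hind leg, irradiated locally with 1 dose and killed up to day 42 or when the tumour grew back, with unirradiated mice as controls. Ages were not given. 2 fibrosarcomas were used, rif (radiation-induced) and nfsa (spontaneous). Of the carcinomas, mmca and mca4 were mammary, and scc7 and nrs1 squamous. On gamma arrays all of rif, nfsa, mmca and mca4 were sampled at day 1 after 0, 30, 50 and 70 Gy. Later gamma groups were rif at days 8 and 16 (30 Gy) and 22 (50 Gy), nfsa at days 4 and 9 (30 and 50 Gy), mmca at day 9 (0 and 30 Gy) and day 19 (50 Gy), and mca4 at day 11 (30 Gy) and days 25 and 41 (50 Gy). The gamma arrays of scc7 (30 Gy day 8, 50 Gy days 23 and 35) and nrs1 (30 Gy day 8, 50 Gy day 15) had no unirradiated group. Carbon ions were given at 30 Gy. The carcinomas mmca and mca4 were sampled at hour 6 and days 1, 3, 5 and 20 beside unirradiated arrays at hour 0, while rif, nfsa and nrs1 (days 5 and 20) and scc7 (days 5 and 42) had irradiated arrays alone. The 54 groups comprised 41 of 2 arrays and 13 of 3. Nothing in the labels ties an array to its own animal, and the spread between arrays behind the p-values may therefore be technical.

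Cxcl2 and Cxcl3 encode chemokines that draw neutrophils through the receptor CXCR2, and Ccl3 encodes a chemokine that draws monocytes and other leukocytes. Csf2 encodes GM-CSF, which supports granulocytes and macrophages, and Ptx3 encodes a soluble pattern recognition protein made by macrophages and stromal cells under IL-1 or TNF. S100a8 and S100a9 encode the 2 chains of calprotectin, a major cytosolic protein of neutrophils that keratinocytes also make under stress. Stfa3 belongs to the mouse stefin A cluster of cysteine protease inhibitors, found in neutrophil precursors and in skin. The stefin A copies are closely alike, so signal of Stfa3 and of its neighbours cannot be told apart here.

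The stretches before the start sites of 2 pairs are shown to let their motifs be compared. These pairs moved together most closely once each tumour's mean was taken out. They are the 120 bases upstream of the annotated start in RefSeq (GRCm38.p6), 5′ to 3′ on the gene's strand. Capitals mark matches to the NF-kB consensus, C/EBP (TTNCNNAA), AP-1 (TGANTCA) or the TATA box (TATAAA), each searched on both strands of windows of 300 bases (250 before and 50 after the start).
Cxcl2, chr5:90903779-90903898, plus strand: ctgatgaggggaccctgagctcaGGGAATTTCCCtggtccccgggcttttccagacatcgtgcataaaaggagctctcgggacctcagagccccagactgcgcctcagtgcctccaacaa
Cxcl3, chr5:90785981-90786100, plus strand: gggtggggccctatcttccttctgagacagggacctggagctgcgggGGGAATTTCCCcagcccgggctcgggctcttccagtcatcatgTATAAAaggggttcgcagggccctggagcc
S100a8, chr3:90668951-90669070, plus strand: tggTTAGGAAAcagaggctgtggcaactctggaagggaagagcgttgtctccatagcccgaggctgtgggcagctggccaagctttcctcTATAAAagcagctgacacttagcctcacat
S100a9, chr3:90695722-90695841, minus strand: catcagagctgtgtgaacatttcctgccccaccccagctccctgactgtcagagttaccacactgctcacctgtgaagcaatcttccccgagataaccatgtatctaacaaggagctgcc
All 8 genes had a window. The letters GGGAATTTCC stood in the Cxcl2 window, starting 97 bases upstream, and in the Cxcl3 window, starting 73 bases upstream. The string was searched on its own after the sequences were seen, and 29 of 32851 windows (0.0883%) hold it on either strand. In both genes a second NF-kB match on the other strand, GGAATTTCCC, overlaps it with a shift of 1 base, and 0.11% of windows hold that string. The NF-kB consensus was matched in 3 members (Ptx3, Cxcl2, Cxcl3) and in 8.46% of all windows. C/EBP letters were in 6 members and 40.7% of windows, TATAAA in Cxcl3, S100a8 and S100a9 and 13.6% of windows, and the AP-1 letters in Stfa3 and 7.81% of windows. The TATAAA match began 30 bases upstream in Cxcl3 and S100a8, and at the start itself in S100a9. In the stretch of S100a9 shown, no motif was matched. A match is a description of letters only.

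Intensities below are linear and as deposited, changes are log2 differences ± SE of the limma model, and a gene rose or fell where its adjusted p was under 0.05. A level belongs to its own probe, and probes are not compared. A lack of overlap between groups of so few arrays is a description only, and its share over all genes is not given. In mmca at day 1 after 70 Gy of gamma rays, members other than S100a9 were apart from the unirradiated arrays, yet did not pass. The same held in mmca at day 1 after carbon ions. Pairs of arrays lay close together at gamma day 1 and on carbon arrays, where the 8 members had pooled SDs within groups of 0.0918 to 0.167 and 0.077 to 0.138 log2, against 0.454 to 0.745 log2 in later gamma groups. The model shares 1 spread per gene over all arrays, and so mixes these. The SE and p of the members in later gamma groups are therefore smaller than the spread of those groups alone would give. At gamma day 1 and on carbon arrays they are larger than the spread there alone would give. Missing values were 4 for Cxcl3 and 1 for S100a8 in gamma scc7, 1 for S100a8 in carbon mmca at day 5 and 1 for Csf2 in rif after 70 Gy. Among the squamous markers, 9 of 16 genes were tested. Their mean level over groups ran from 6.29 to 7.22 log2 in nrs1, but from 0.15 to 0.81 log2 in scc7, below the 1.11 to 3.53 log2 of mmca. The label of scc7 is thus not borne out by these markers. In bulk tumour RNA, fewer cells of a type and less RNA per cell cannot be told apart.

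At day 1 after gamma rays the calprotectin and stefin genes were higher when rif, nfsa, mmca and mca4 were averaged over their 3 doses. S100a9 gave 1.10 ± 0.18. Of the other 7 genes, 4 rose and none fell, where 24.8% of 12848 genes rose, 34.7% fell and 59.4% did either. With quantile normalization 33% rose and 26.2% fell. S100a8 changed by 0.79 ± 0.17 (adjusted p = 8.39e-05), Stfa3 by 0.73 ± 0.14 (adjusted p = 6.62e-06), Ccl3 by 0.51 ± 0.16 (adjusted p = 0.00389) and Csf2 by 0.33 ± 0.13 (adjusted p = 0.0284). Cxcl2 gave 0.32 ± 0.16 (adjusted p = 0.0752), Cxcl3 -0.01 ± 0.18 (adjusted p = 0.951) and Ptx3 -0.26 ± 0.20 (adjusted p = 0.27). The median of the 8 was 0.42, against -0.04 over all genes. When each group counted as a single value, Stfa3 (adjusted p = 0.066), S100a8 (0.119), Ccl3 (0.219) and Csf2 (0.427) no longer passed. Csf2 also missed the threshold once any 1 of 4 unirradiated arrays was dropped (highest adjusted p = 0.0788).

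S100a8 was highest at 50 Gy in nfsa. Its intensity there was 18.9 and 17.6 on unirradiated arrays, 39.04 and 44.8 at 30 Gy, 111 and 119 at 50 Gy and 29.6 and 29.2 at 70 Gy. Every irradiated array lay above the unirradiated ones, and the 50 Gy pair stood far above those at 30 and 70 Gy. The change was 1.20 ± 0.43 (adjusted p = 0.0208) at 30 Gy, 2.66 ± 0.43 (adjusted p = 1.05e-05) at 50 Gy and 0.69 ± 0.43 (adjusted p = 0.205) at 70 Gy. In rif, S100a8 had 22.1 and 17.3 unirradiated, 24.5 and 23.6 at 30 Gy, 35.2 and 43.5 at 50 Gy and 51.8 and 53.5 at 70 Gy, an order that followed the dose, with 1.43 ± 0.43 (adjusted p = 0.00419) at 70 Gy.

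S100a9, the partner chain, had 22.4 and 21.3 in nfsa at 0 Gy, 66.5 and 74.9 at 30 Gy, 124 and 120.5 at 50 Gy and 45.96 and 44.9 at 70 Gy. It peaked at 50 Gy, as S100a8 did. In rif it had 25.1 and 19.9, 39.4 and 38.5, 51.1 and 64.6 and 73.02 and 94.4 at 0, 30, 50 and 70 Gy. The order followed the dose, with 1.89 ± 0.45 at 70 Gy. In mca4 the values were 10.3 and 15.005, 11.2 and 9.67, 33.5 and 28.4 and 17.8 and 17.9 in the same order. The 30 Gy pair overlapped the unirradiated one and the 50 Gy pair was highest (1.31 ± 0.45). In mmca S100a9 had 7.13 and 8.16 at 0 Gy, 14.2 and 16.3 at 30 Gy, 13.6 and 12.4 at 50 Gy and 11.3 and 12.03 at 70 Gy. The irradiated arrays lay above the unirradiated ones at every dose.

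The neutrophil chemokine genes went opposite ways in the 2 fibrosarcomas. In rif, Cxcl2 had 2.79 and 2.82 at 0 Gy, 3.48 and 3.03 at 30 Gy, 7.21 and 8.85 at 50 Gy and 9.805 and 10.9 at 70 Gy. Every irradiated rif array was above the unirradiated ones, and the level followed the dose (1.88 ± 0.39, adjusted p = 4.26e-05 at 70 Gy). In nfsa it had 8.93 and 7.61, 4.87 and 5.78, 4.45 and 5.31 and 3.65 and 3.32 at the same doses, all irradiated arrays below the unirradiated ones, with -1.24 ± 0.39 (adjusted p = 0.00885) at 70 Gy. Cxcl3 did likewise, with 6.36 and 6.22 against 1.54 and 1.71 in rif at 70 Gy (1.96 ± 0.45, adjusted p = 0.000249) and 7.58 and 7.18 against 17.9 and 17.9 in nfsa (-1.28 ± 0.45, adjusted p = 0.022). The change over all doses differed between rif and nfsa by 2.08 ± 0.45 (adjusted p = 0.000459) for Cxcl2 and 2.01 ± 0.52 (adjusted p = 0.00399) for Cxcl3, 2 of 8 members, where 20.3% of genes passed that test in either direction. Cxcl2 also rose in mca4, by 0.90 ± 0.32 (adjusted p = 0.0167) over its 3 doses, while Cxcl3 there gave -0.26 ± 0.37 (adjusted p = 0.599).

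Ptx3 was lower at higher doses in nfsa and high in 1 pair of mmca. In nfsa its intensity was 7.71 and 6.57, 5.16 and 6.65, 3.51 and 3.76 and 2.04 and 1.91 at 0, 30, 50 and 70 Gy. The 50 and 70 Gy pairs lay below all unirradiated arrays, and 70 Gy gave -1.85 ± 0.49 (adjusted p = 0.00222). In mmca it was 0.238 and 0.259, 0.257 and 0.234, 1.84 and 1.94 and 0.401 and 0.423, so the 50 Gy pair stood apart (2.93 ± 0.49, adjusted p = 3.42e-06). On those 2 arrays the means of 2 other lists were also high: fibroblast genes were at 3.24 log2 against 1.03 log2 unirradiated, and skeletal muscle genes at 2.65 against -0.96 log2. Their part in the Ptx3 value was not tested. Without that pair the mean over tumours of Ptx3 was -0.47 (adjusted p = 0.0415) and that of Cxcl2 0.36 (adjusted p = 0.0461). Beside S100a9, 6 members then passed, 5 higher and 1 lower, where 25.5% of genes were higher and 34.2% lower. The Ptx3 change was larger in mmca than in mca4 by 1.91 ± 0.57 (adjusted p = 0.00621), but by 1.05 (adjusted p = 0.157) without the 50 Gy mmca pair and by 1.67 (adjusted p = 0.0229) without the 50 Gy pairs of both. That difference passed for 2 of 8 members (Ptx3 and Csf2) and for 35.7% of genes. In mca4 Ptx3 was 2.12 and 2.25 at 0 Gy, 0.911 and 0.875 at 30 Gy, 3.22 and 3.11 at 50 Gy and 0.868 and 0.8604 at 70 Gy, so the 30 and 70 Gy pairs lay below the unirradiated pair and the 50 Gy pair above it.

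Ccl3 rose at every dose in rif. It had 1.27 and 1.83 at 0 Gy, 3.13 and 3.02 at 30 Gy, 3.25 and 3.44 at 50 Gy and 2.99 and 3.09 at 70 Gy, the 3 doses lying close together, with 1.01 ± 0.38 (adjusted p = 0.0236) at 30 Gy. In mmca the 30 Gy pair was high, at 4.57 and 4.78 against 2.03 and 1.85 (1.27 ± 0.38, adjusted p = 0.00537), the 50 and 70 Gy pairs lying below the unirradiated ones. Csf2, near the low end of the array's range, likewise passed at 30 Gy in mmca, 0.854 and 0.667 against 0.329 and 0.3396 (1.17 ± 0.32, adjusted p = 0.00208), and fell at 70 Gy in mca4, 0.398 and 0.418 against 0.785 and 0.695 (-0.86 ± 0.32, adjusted p = 0.0259). The Csf2 change differed between mmca and mca4 by 0.91 ± 0.37 (adjusted p = 0.0456), which missed the threshold on dropping any 1 of 12 arrays.

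Stfa3 was above the unirradiated arrays at all doses in both fibrosarcomas. In nfsa its intensity was 0.137 and 0.152, 0.289 and 0.323, 0.392 and 0.373 and 0.389 and 0.358 at 0, 30, 50 and 70 Gy. These values are close to the floor of 0.1269, and the change over the doses was 1.28 ± 0.28 (adjusted p = 0.000295). In rif it was 0.92 ± 0.28 (adjusted p = 0.00432). The mean change of the 2 fibrosarcomas exceeded that of the 2 mammary carcinomas by 0.74 ± 0.28 (adjusted p = 0.0472), close to the threshold and lost on dropping any 1 of 26 arrays. It was the 1 member of 8 to pass that test, which 21.9% of genes passed. Over the 3 doses 5 members beside S100a9 rose in rif, where 18.5% of genes rose, 32.4% fell and 50.9% did either. In nfsa, beside S100a9, 2 rose and 2 fell (9.32% of genes rose, 19.7% fell and 29% did either). Of the members other than S100a9, Ptx3 alone rose in mmca (18% of genes rose, 15% fell and 33.1% did either), and Cxcl2 alone in mca4 (21.3%, 21.4% and 42.8%).

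**Figure D1:**
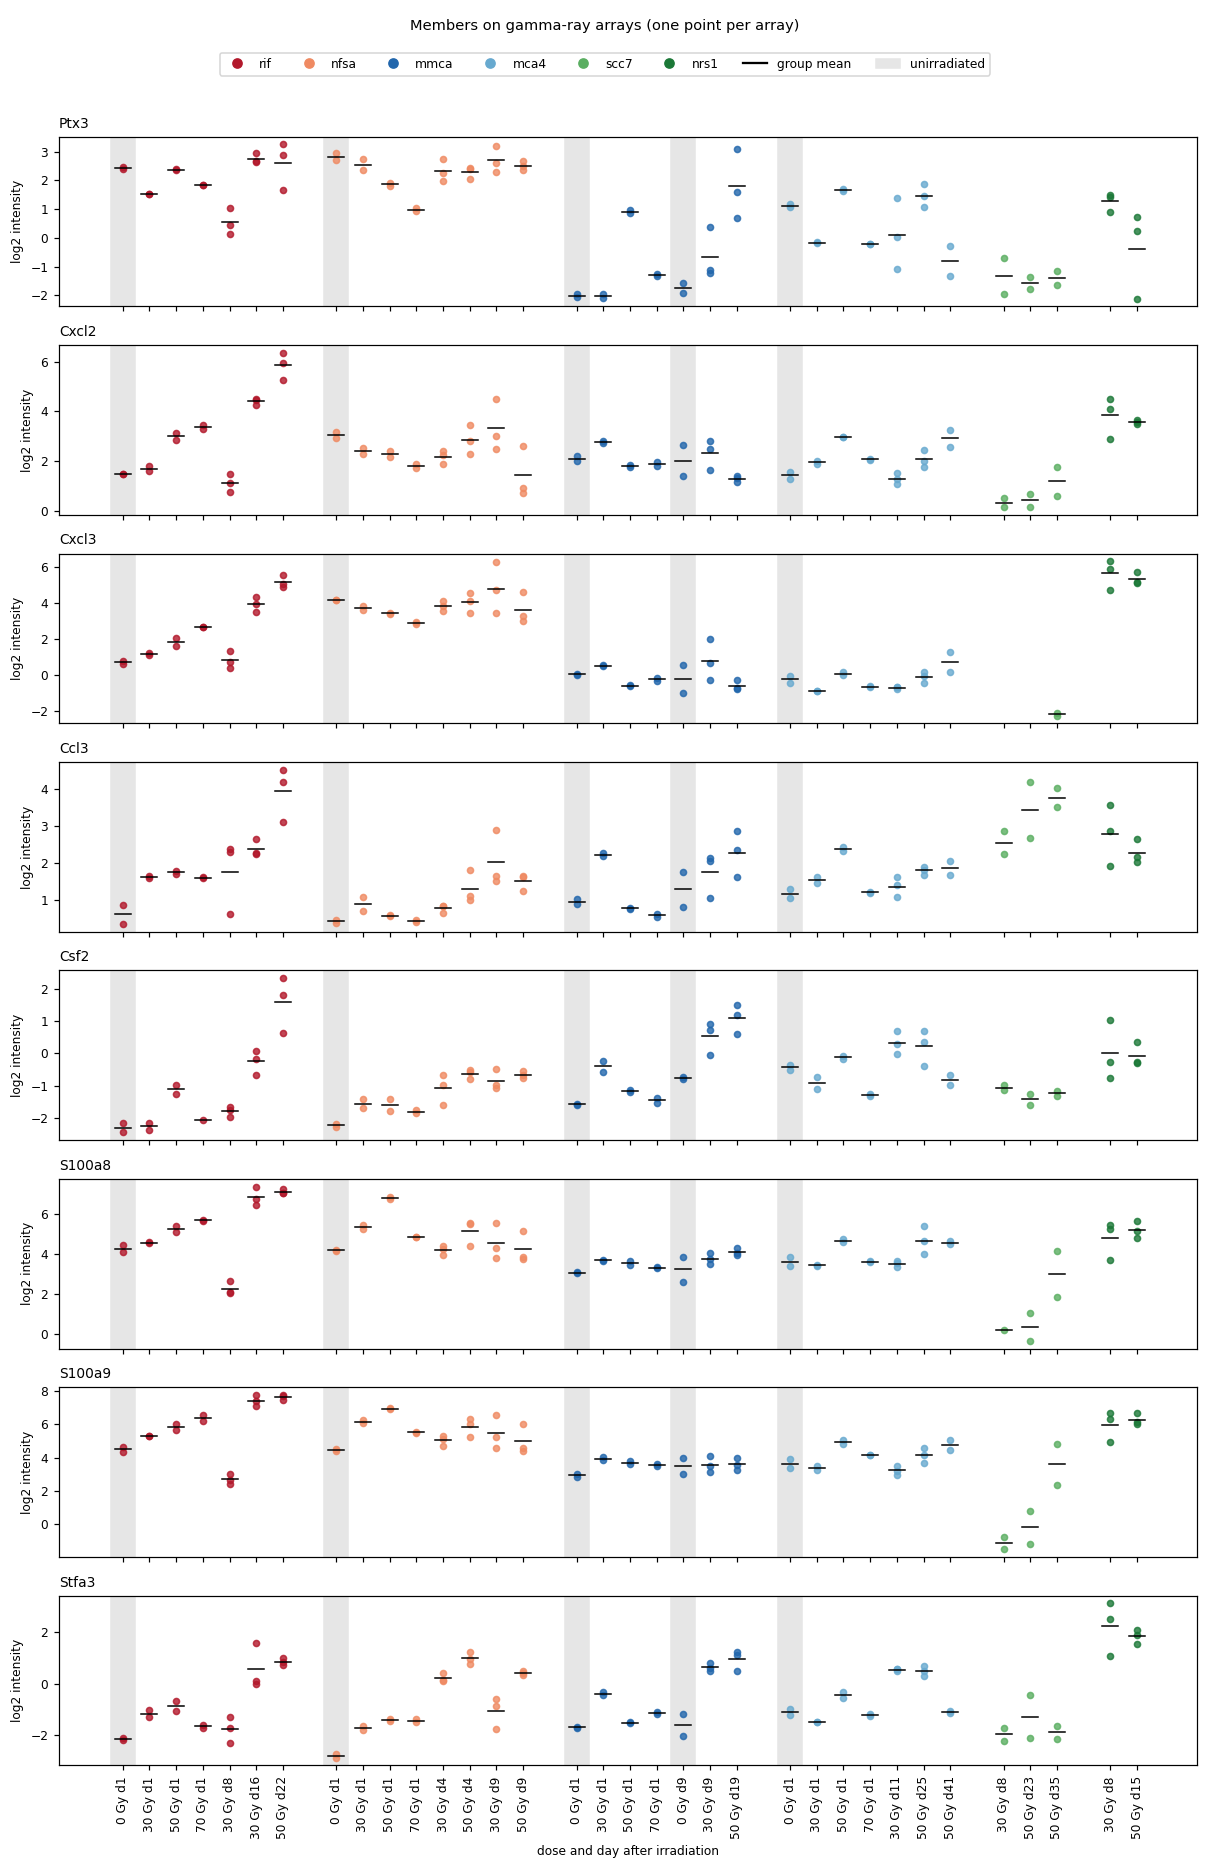
Log2 intensity of the 8 genes on each gamma array, 1 panel per gene, with groups of each tumour (colours) by day and dose along the horizontal axis, black bars for group means and grey bands for unirradiated groups. The rif arrays of days 16 and 22 lie above the unirradiated rif arrays for Cxcl2, Cxcl3, S100a8 and S100a9, and the day 8 arrays lie below them for both S100 genes.

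Dose was set against dose at day 1 over the same tumours, 70 Gy minus 30 Gy. Ccl3 fell by 0.61 ± 0.19 (adjusted p = 0.00598), and no other member passed (23.7% of genes were higher, 26.5% lower and 50.2% either). Under quantile normalization 48.1% of genes were higher and 8.62% lower. The Ccl3 call was lost when each group counted as a single value (adjusted p = 0.131). Its group means were 0.59 log2 at 70 Gy against 2.22 at 30 Gy in mmca, but 1.60 against 1.62 in rif. For Cxcl2 the mean covers opposite orders. In rif Cxcl2 was higher at 70 than at 30 Gy and in nfsa lower, as the values above show, and its mean difference was 0.08 ± 0.19 (adjusted p = 0.77). Csf2 gave -0.37 ± 0.17 (adjusted p = 0.063). The median of the 8 was -0.05, and that of all genes -0.01.

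Between days 8 and 25 the members were higher in the mean of rif, nfsa, mmca and mca4, led by Stfa3 and Csf2. Here mmca was set against its unirradiated day 9 arrays, but rif, nfsa and mca4 against their unirradiated day 1 arrays. In rif, nfsa and mca4 irradiation and time of growth therefore cannot be told apart, nor can they in nfsa at day 4. 7 of 8 rose and none fell, where 34% of 12889 genes rose and 39.6% fell (73.6% in either direction). Stfa3 rose by 2.13 ± 0.14 (adjusted p = 7.44e-23), Csf2 by 1.48 ± 0.13 (adjusted p = 1.11e-16) and Ccl3 by 1.14 ± 0.15 (adjusted p = 8.87e-10). Cxcl3 rose by 0.70 ± 0.18 (adjusted p = 0.000534), S100a8 by 0.64 ± 0.17 (adjusted p = 0.000809), S100a9 by 0.58 ± 0.18 (adjusted p = 0.00329) and Cxcl2 by 0.42 ± 0.16 (adjusted p = 0.0137), and Ptx3 gave 0.32 ± 0.20 (adjusted p = 0.135). The Cxcl2, Cxcl3 and S100a9 calls rest on rif. Without it Cxcl2 gave -0.21 (adjusted p = 0.316), Cxcl3 0.07 (adjusted p = 0.797) and S100a9 0.30 (adjusted p = 0.202), while Stfa3 gave 2.16, Csf2 1.25, Ccl3 0.82 and S100a8 0.47, and Ptx3 then passed at 0.59 (adjusted p = 0.0219). When each group counted as a single value, 3 members and 27.3% of genes passed. With missing values at the floor the S100a8 mean of all 4 tumours was 0.64 (adjusted p = 0.0899) and no longer passed.

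In rif day 8 and day 16 lay on opposite sides of the unirradiated level for the S100 genes. Cxcl2 had 2.79 and 2.82 unirradiated, 1.698, 2.77 and 2.15 at day 8 (30 Gy), 22.1, 22.4 and 19.3 at day 16 (30 Gy) and 38.1, 81.9 and 61.5 at day 22 (50 Gy). Arrays of days 16 and 22 were above the unirradiated ones. The changes were -0.38 ± 0.35 (adjusted p = 0.368), 2.92 ± 0.35 (adjusted p = 5.8e-11) and 4.36 ± 0.35 (adjusted p = 1.66e-17). Cxcl3 had 46.6, 33.6 and 29.2 at day 22 against 1.54 and 1.71 unirradiated, a rise of 4.46 ± 0.41 (adjusted p = 5.48e-15). S100a9 had 25.1 and 19.9 unirradiated, 5.28, 7.94 and 6.32 at day 8, 214, 139 and 169 at day 16 and 174, 216 and 205 at day 22. It fell by 1.80 ± 0.41 (adjusted p = 0.000147) at day 8 and rose by 3.14 ± 0.41 (adjusted p = 6.35e-10) at day 22, with no overlap at either time. S100a8 fell by 2.02 ± 0.39 (adjusted p = 1.04e-05) and rose by 2.87 ± 0.39 (adjusted p = 2.46e-09) at the same times. Ptx3 also fell at day 8, 1.11, 2.07 and 1.37 against 5.28 and 5.51 (-1.88 ± 0.45, adjusted p = 0.000267), but spread widely at day 22 (9.51, 3.14 and 7.33).

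Csf2 reached its highest gamma level in the same day 22 arrays, 4.996, 3.45 and 1.53 against 0.183 and 0.223 (3.88 ± 0.29, adjusted p = 7.93e-19). Ccl3 there had 8.55, 22.8 and 18.1 against 1.27 and 1.83 (3.32 ± 0.35, adjusted p = 4.34e-13). At day 22, 7 of 8 members rose (26.7% of genes rose, 38.5% fell and 65.2% did either). The mean level of the 19 tested neutrophil genes was 0.89 log2 unirradiated, 0.48 at day 8, 1.89 at day 16 and 2.04 at day 22. T and NK cell markers were at -0.18 log2 unirradiated, 2.18 at day 8, 1.06 at day 16 and 0.44 at day 22, and skeletal muscle genes at 4.43, 4.86, 1.10 and 3.99. At day 22 squamous markers were at 0.47 against 0.02 log2, and macrophage genes at 4.13 against 4.00 log2. Their part in the members' values was not tested. Dose and time differ together between days 16 and 22.

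Stfa3 and Csf2 also rose later in nfsa, mmca and mca4. In nfsa at day 9 Stfa3 had 0.557, 0.664 and 0.301 after 30 Gy and 1.3996, 1.28 and 1.34 after 50 Gy, against 0.137 and 0.152 unirradiated (2.48 ± 0.28, adjusted p = 1.09e-11 over both). Cxcl2 there passed after 50 Gy only, with 1.901, 1.66 and 6.12 against 8.93 and 7.61 (-1.62 ± 0.35, adjusted p = 7.06e-05). Stfa3 in mmca had 0.247 and 0.4497 in the day 9 controls, 1.399, 1.77 and 1.55 at day 9 (30 Gy) and 2.35, 1.42 and 2.204 at day 19 (50 Gy), with 2.39 ± 0.28 (adjusted p = 5.96e-11) over both. In mca4 it had 0.432 and 0.511 unirradiated, 1.43, 1.48 and 1.51 at day 11 (30 Gy), 1.63, 1.42 and 1.25 at day 25 (50 Gy) and 0.456 and 0.4805 at day 41 (50 Gy). The mean change of days 11 and 25 was 1.63 ± 0.28 (adjusted p = 6.77e-07), and that of day 41 -0.0046 ± 0.34 (adjusted p = 0.992). Csf2 rose in mmca by 1.57 ± 0.26 (adjusted p = 9.49e-07), in nfsa by 1.48 ± 0.26 (adjusted p = 1.78e-06) and in mca4 by 0.71 ± 0.26 (adjusted p = 0.0153). Ptx3 rose in mmca by 2.32 ± 0.40 (adjusted p = 2.07e-06), from uneven arrays at day 19 (3.05, 8.57 and 1.61, against 0.336 and 0.262 in day 9 controls). T and NK cell markers were at 1.56 (30 Gy) and 3.30 log2 (50 Gy) in nfsa at day 9, against 0.10 unirradiated. In mmca macrophage genes were at 3.41 at day 9 and 4.16 at day 19, against 2.08 in day 9 controls. Squamous markers there were at 2.34 and 2.61 against 1.11, and fibroblast genes at 2.48 and 3.22 against 1.41. In mca4 squamous markers were at 1.80 unirradiated, 2.48 at day 11, 2.32 at day 25 and 1.62 at day 41. The part of these lists in the members' values was not tested. Unirradiated mmca at day 9 against day 1 had 0 of 8 members past the threshold in limma, 1 with an unadjusted p under 0.05, where 21.2% of genes passed.

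The day 41 arrays of mca4 after 50 Gy were set against its unirradiated day 1 arrays. Cxcl2 had 5.99 and 9.55 against 2.45 and 2.95 (1.49 ± 0.39, adjusted p = 0.000778) and S100a9 21.8 and 33.1 against 10.3 and 15.005 (1.11 ± 0.45, adjusted p = 0.031), both above the unirradiated arrays. Ptx3 was below them, 0.823 and 0.403 against 2.12 and 2.25 (-1.92 ± 0.49, adjusted p = 0.000669). The fibroblast list was lower too on these arrays, with arrays at 0.59 and 2.40 against a mean of 3.15 log2 and with 9 of 10 genes lower, and its part in the Ptx3 value was not tested.

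Stfa3 had its largest gamma change, over all single groups, in nfsa at day 4 after 50 Gy. It had 0.137 and 0.152 unirradiated, 1.097, 1.33 and 1.12 after 30 Gy and 1.96, 2.36 and 1.71 after 50 Gy, with no overlap between irradiated and unirradiated arrays. Over both doses Stfa3 rose by 3.41 ± 0.28 (adjusted p = 3.67e-17), Csf2 by 1.37 ± 0.26 (adjusted p = 6.64e-06) and S100a9 by 1.00 ± 0.37 (adjusted p = 0.0166). These 3 of 8 rose and none fell (24.4% of genes rose, 34.3% fell and 58.6% did either, and 17.3% and 45.4% rose and fell under quantile normalization). The unirradiated Stfa3 values are near the floor, so its fold is sensitive to it, and a floor at the 10th percentile gave 3.07. Cxcl2 gave -0.53 ± 0.32 (adjusted p = 0.144) and Ptx3 -0.52 ± 0.40 (adjusted p = 0.272). T and NK cell markers moved with this time, 9 of 9 tested rising with a median of 3.40, and 10 of 12 macrophage genes rose. Their part in the Stfa3 and Csf2 values was not tested.

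The gamma arrays of scc7 and nrs1 allow only later against earlier groups, with a higher dose at the later time. In scc7 S100a9 had 0.349 and 0.574 at day 8 (30 Gy), 0.4397 and 1.74 at day 23 (50 Gy) and 28.7 and 5.03 at day 35 (50 Gy). The day 35 arrays differ from each other but both exceed the others, and the change from day 8 was 4.75 ± 0.45 (adjusted p = 4.16e-12). The shared spread behind that SE understates the gap between the day 35 arrays. S100a8 at day 35 had 18.1 and 3.598 against the 1 measured array at day 8, 1.15 (2.81 ± 0.53, adjusted p = 0.000264). These 2 of 7 tested members rose (1.98% of genes rose, 1.4% fell and 3.38% did either). Cxcl3 had a value in scc7 at day 35 alone (0.207 and 0.226). In nrs1 Ptx3 was lower at day 15 (50 Gy), 0.231, 1.196 and 1.67 against 2.68, 2.8 and 1.86 at day 8 (-1.64 ± 0.40, adjusted p = 0.00399). The array at 0.231 lay far below the others of day 15, whose SD was 1.53 log2, so the size of the fall leans on it. No other member passed (3.29% of genes were higher, 9.47% lower and 12.8% either).

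At hour 6 after carbon ions the chemokine genes and Ptx3 were high in both mammary carcinomas. Ptx3 had 7.86 and 8.27 in mmca against 0.495 and 0.579 unirradiated, and 1.52 and 1.66 in mca4 against 0.442 and 0.421. Cxcl2 had 16.4 and 17.1 in mmca against 4.72 and 3.795, and 33.1 and 33.6 in mca4 against 6.84 and 7.21. Neither gene's groups overlapped in either tumour, which by itself is a description, as stated above. Cxcl3 had 2.003 and 2.19 in mmca against 0.878 and 0.809, and 10.9 and 10.7 in mca4 against 1.38 and 1.43, the wider gap being in mca4. Ccl3 had 6.84 and 6.84 in mmca against 2.31 and 2.303, and 12.01 and 11.6 in mca4 against 3.26 and 3.11.

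The mean of both tumours rose by 2.90 ± 0.35 (adjusted p = 1.32e-09) for Ptx3, 2.13 ± 0.32 (adjusted p = 8.97e-07) for Cxcl3, 2.12 ± 0.28 (adjusted p = 1.24e-08) for Cxcl2 and 1.73 ± 0.27 (adjusted p = 1.94e-06) for Ccl3. S100a9 rose by 1.14 ± 0.32 (adjusted p = 0.0122) and S100a8 by 0.96 ± 0.30 (adjusted p = 0.0306). 6 of 8 members rose and none fell, where 5.06% of 12955 genes rose, 4.48% fell and 9.54% did either. The median of the 8 was 1.44, against -0.04 over all genes. Csf2 gave 0.55 ± 0.23 (adjusted p = 0.116) and Stfa3 0.15 ± 0.24 (adjusted p = 0.763). S100a8 missed the threshold on dropping any 1 of the 8 arrays (highest adjusted p = 0.107), and S100a9 on dropping any 1 of 3 (highest 0.0547). With missing values at the floor S100a8 also missed it (adjusted p = 0.395). When each group counted as a single value, 3 members and 2.44% of genes passed, and Ptx3 had an adjusted p of 0.0809. T and NK cell markers were not higher at hour 6 (0 of 9 rose and 3 fell), and 1 of 12 macrophage genes rose. Of fibroblast genes 3 of 10 rose, at a list mean of 3.14 against 2.38 log2 in mmca and 2.74 against 2.20 in mca4. Skeletal muscle genes in mca4 were at 0.63 against 2.36, with 0 of 10 passing in the mean of both tumours. The part of these lists in the members' values was not tested.

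At day 1 after carbon ions no member passed in the fit over all arrays. Cxcl2 had 7.701 and 7.94 in mmca against 4.72 and 3.795, and 10.5 and 9.87 in mca4 against 6.84 and 7.21, above the unirradiated arrays in both (0.71 ± 0.28, adjusted p = 0.0982). Ptx3 gave 0.97 ± 0.35 (adjusted p = 0.069). In the limma fit over all arrays 0 of 8 members had an adjusted p under 0.05, where 8% of 12954 genes did (4.17% higher and 3.83% lower). By unadjusted p, 3 members were under 0.05. All 8 had a mean above 0. With carbon arrays fitted apart from gamma arrays, 7 of 8 passed, where 27% of all genes did.

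**Figure D2:**
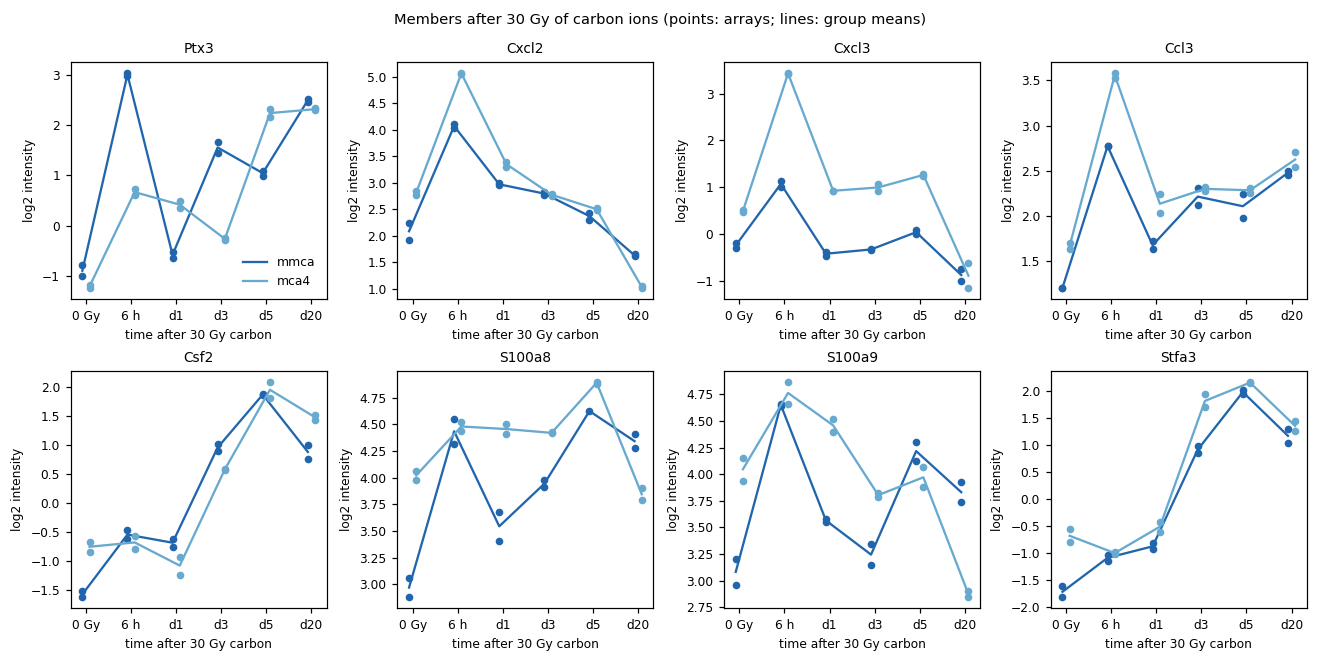
Log2 intensity of the 8 genes in mmca and mca4 before and at 5 times after 30 Gy of carbon ions, with points for arrays and lines through group means. Cxcl2, Cxcl3 and Ccl3 are highest at hour 6 in both tumours, and Csf2 and Stfa3 at day 5.

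Between days 3 and 5 after carbon ions Stfa3 and Csf2 had the largest changes of the 8. The only unirradiated carbon arrays were those of hour 0. At all later carbon times, irradiation and time of growth therefore cannot be told apart. Stfa3 in mmca had 0.325 and 0.283 unirradiated, 1.799 and 1.99 at day 3 and 4.08 and 3.86 at day 5. In mca4 it had 0.574 and 0.677, 3.85 and 3.26 and 4.44 and 4.53 in the same order. Every irradiated array of either tumour was above the unirradiated ones. Csf2 in mmca had 0.325 and 0.347 unirradiated, 2.01 and 1.86 at day 3 and 3.65 and 3.63 at day 5. In mca4 Csf2 had 0.6301 and 0.557, 1.505 and 1.48 and 3.51 and 4.24, again with irradiated arrays all above the unirradiated ones. The means rose by 2.93 ± 0.21 (adjusted p = 5.52e-20) for Stfa3, 2.50 ± 0.20 (adjusted p = 4.06e-18) for Csf2 and 2.20 ± 0.30 (adjusted p = 2.89e-09) for Ptx3. S100a8 rose by 0.97 ± 0.27 (adjusted p = 0.00171) and Ccl3 by 0.79 ± 0.23 (adjusted p = 0.00288). 5 of 8 rose and none fell, where 21.8% of 12942 genes rose and 37.2% fell (59% either way). With missing values at the floor and quantile normalization those shares were 21.9% and 24.5%. The S100a8 mean uses 1 array of mmca at day 5, since the other had no value, and with missing values at the floor its adjusted p was 0.976. Cxcl2 gave 0.16 ± 0.24 (adjusted p = 0.579), Cxcl3 0.37 ± 0.28 (adjusted p = 0.255) and S100a9 0.24 ± 0.28 (adjusted p = 0.457).

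Other lists moved at the same time. Of squamous markers 7 of 9 rose (median 2.09), of macrophage genes 12 of 12 (median 1.41) and of T and NK cell markers 8 of 9 (median 1.34), with 9 of 19 neutrophil genes higher and 3 lower (median 0.32). The squamous list's mean level was 3.53 log2 at day 5 against 1.29 unirradiated in mmca, and 3.29 against 1.55 in mca4. Their part in the members' values was not tested.

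At day 20, again against the unirradiated arrays of hour 0, the chemokine pair and Ptx3 had parted. Ptx3 had 5.54 and 5.77 in mmca and 5.04 and 4.95 in mca4, far above the unirradiated values given for hour 6 (3.47 ± 0.35, adjusted p = 3.22e-14). Cxcl2 had 3.05 and 3.13 in mmca and 2.08 and 2.01 in mca4, below the unirradiated arrays of both (-1.12 ± 0.28, adjusted p = 0.000247). Cxcl3 fell by 1.01 ± 0.32 (adjusted p = 0.00418), with -1.39 ± 0.45 (adjusted p = 0.00691) in mca4 and -0.63 ± 0.45 (adjusted p = 0.229) in mmca. When each group counted as a single value, the Cxcl3 mean no longer passed (adjusted p = 0.0532). Stfa3 was higher by 2.47 ± 0.24 (adjusted p = 1.2e-14), Csf2 by 2.34 ± 0.23 (adjusted p = 7.54e-15) and Ccl3 by 1.11 ± 0.27 (adjusted p = 0.000208). 4 of 8 rose and 2 fell, where 27.3% of genes rose and 43.7% fell (71% either way). S100a9 was 13.3 and 15.2 in mmca against 9.19 and 7.79 unirradiated, but 7.46 and 7.18 in mca4 against 15.3 and 17.8. It was above the unirradiated arrays in mmca and below them in mca4, and the test of that difference gave 1.92 ± 0.64 (adjusted p = 0.24). In limma 0 of 8 members passed the test of a difference between mmca and mca4 at hour 6, day 1, days 3 to 5 or day 20, with 3, 1, 1 and 3 at an unadjusted p under 0.05. Of all genes 0%, 0.193%, 0.34% and 0.286% passed it. The shared spread makes the SE of these differences larger than carbon arrays alone would give. For S100a9 the SD within carbon groups was 0.103 log2. Not passing therefore does not show that the 2 tumours were alike.

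Fibroblast (10 of 10 tested), skeletal muscle (10 of 10) and macrophage genes (11 of 12) were higher at day 20. The fibroblast list's mean was 3.77 log2 against 2.38 unirradiated in mmca and 4.04 against 2.20 in mca4. Their part in the Ptx3 value was not tested.

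**Figure D3:**
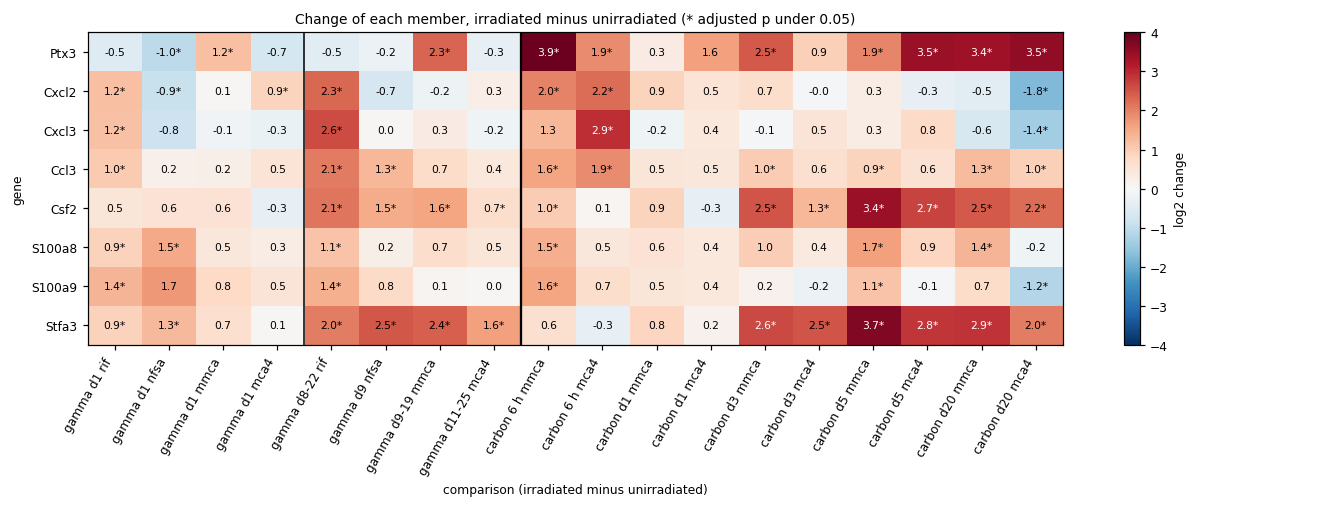
Log2 change of each gene, irradiated minus unirradiated, in each tumour at gamma day 1 (over 3 doses), at later gamma times and at each carbon time, with stars where the adjusted p was under 0.05 (none drawn for S100a9 in nfsa at gamma day 1). Red is higher and blue lower in irradiated tumours, and the darkest reds are Ptx3 at carbon hour 6 in mmca and Stfa3 at carbon day 5 in mmca. S100a9 in rif at gamma day 1 carries a star, but it enters the mean already known and is a description only.

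The later carbon arrays of rif, nfsa, nrs1 and scc7 were set against day 5 of the same tumour. In rif Cxcl2 had 25.5 and 25.8 at day 20 against 1.46 and 1.402 at day 5 (4.17 ± 0.39, adjusted p = 1.91e-14). S100a9 had 82.7 and 84.2 against 4.65 and 5.22 (4.08 ± 0.45, adjusted p = 1.01e-11), and Stfa3 went the other way, 0.769 and 0.8498 against 4.504 and 4.02 (-2.40 ± 0.34, adjusted p = 2.31e-08). None of these groups overlapped. 4 members were higher and 2 lower at day 20 (28% of genes higher, 16.9% lower, 44.9% either). In nfsa 5 members were higher at day 20, among them S100a9, 105 and 100.2 against 26.9 and 24.1 (2.01 ± 0.45, adjusted p = 0.000504), and Cxcl2, 27.1 and 24.05 against 6.52 and 6.198 (2.01 ± 0.39, adjusted p = 5.07e-05), where 12.1% of genes were higher, 7.78% lower and 19.9% either. In rif 7 of 19 neutrophil genes were higher and 7 lower at day 20, with a list mean of 1.61 against 1.53 log2. T and NK cell markers were lower at day 20 in both fibrosarcomas, 9 of 9 in rif and 8 of 9 in nfsa, with medians of -3.24 and -2.55, and their part in the members' values was not tested.

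In scc7 the order was the reverse. S100a8 had 5.05 and 5.09 at day 42 against 10.7 and 12.9 at day 5 (-1.21 ± 0.43, adjusted p = 0.0236), and Cxcl3 0.398 and 0.383 against 2.197 and 2.09 (-2.46 ± 0.45, adjusted p = 1.43e-05). Ptx3 had 0.432 and 0.446 against 2.26 and 2.53 (-2.44 ± 0.49, adjusted p = 6.21e-05). 5 members were lower and 1 (Stfa3, 0.90 ± 0.34, adjusted p = 0.0349) higher, where 17% of genes were lower, 15.5% higher and 32.5% either. Of neutrophil genes 12 of 19 were lower and 1 higher, and T and NK cell markers were lower in 9 of 9 (list mean 1.73 against 4.77 log2). Their part in the members' values was not tested. In nrs1 Csf2 was higher at day 20, 2.77 and 2.43 against 1.101 and 1.24 (1.15 ± 0.32, adjusted p = 0.00313), Ccl3 was lower (-0.95 ± 0.38, adjusted p = 0.0443), and no other member passed (35.7% of genes did).

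**Figure D4:**
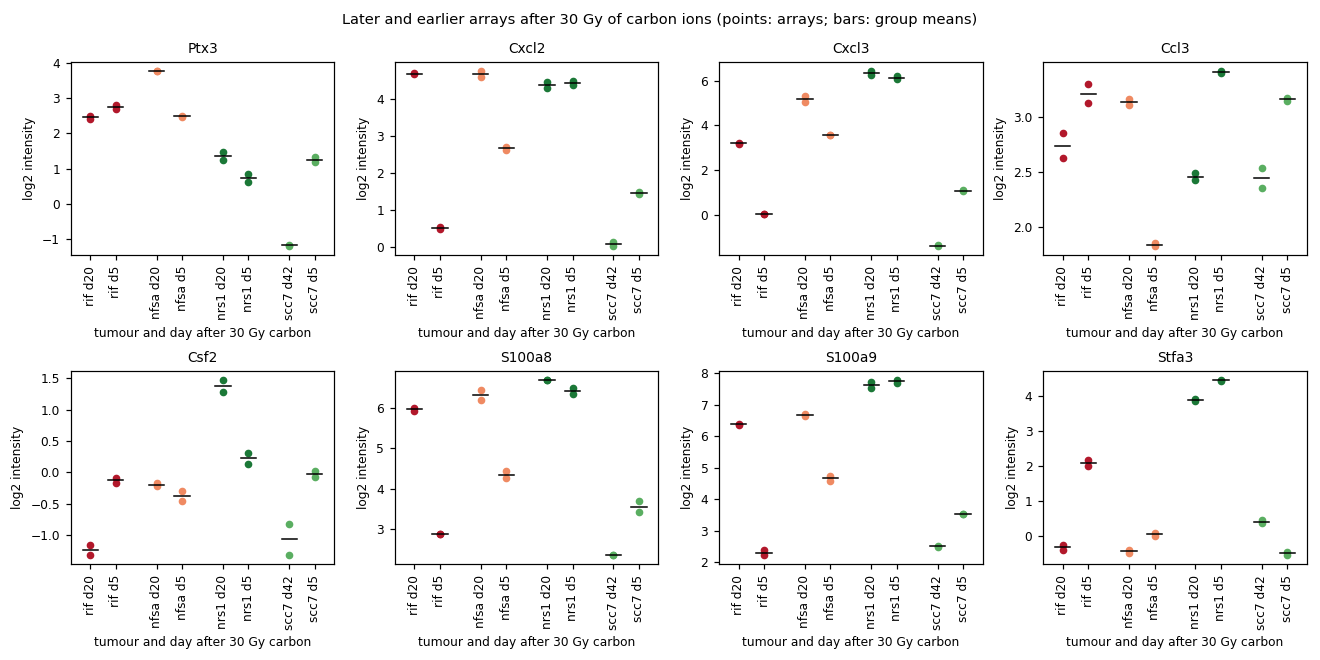
Log2 intensity of the 8 genes on the later arrays (day 20, or day 42 in scc7) and on the day 5 arrays of 4 tumours after 30 Gy of carbon ions, with points for arrays and bars for group means. Cxcl2, Cxcl3, S100a8 and S100a9 are higher at day 20 in rif and nfsa and lower at day 42 in scc7.

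Tumours differed in the members before any irradiation, as they did in 67.4% of all genes for the fibrosarcomas against the carcinomas. The fibrosarcomas had more Ptx3, with 5.28 and 5.51 in rif and 7.71 and 6.57 in nfsa, against 0.238 and 0.259 in mmca and 2.12 and 2.25 in mca4 (3.07 ± 0.35, adjusted p = 2.39e-12). No fibrosarcoma array overlapped a carcinoma array. Cxcl3 was high in nfsa alone, at 17.9 and 17.9, against 1.54 and 1.71 in rif, 0.987 and 1.04 in mmca and 0.969 and 0.7395 in mca4. The difference rif minus nfsa was -3.46 ± 0.45 (adjusted p = 2.1e-09) in Cxcl3 and -1.56 ± 0.39 (adjusted p = 0.000666) in Cxcl2. Of the fibrosarcomas against the carcinomas, 4 members were higher and 2 (Csf2, -1.26 ± 0.23 (adjusted p = 1.23e-06), and Stfa3, -1.08 ± 0.24 (adjusted p = 6.96e-05)) lower, where 41.3% of genes were higher, 26.1% lower and 67.4% either. The 2 mammary carcinomas differed in Ptx3 on gamma arrays (-3.13 ± 0.49, adjusted p = 1.69e-07), but on the unirradiated carbon arrays the difference was 0.31 ± 0.49 (adjusted p = 0.814). There Ptx3 had 0.495 and 0.579 in mmca and 0.442 and 0.421 in mca4, against 2.12 and 2.25 in the gamma controls of mca4, and 2 sets of unirradiated mca4 had different Ptx3 values. The 2 sets were not tested against each other.

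The 2 squamous carcinomas differed in several members after 30 Gy. The share of all genes that differ between them is not given here, so the members cannot be set against it. At gamma day 8 scc7 had 0.349 and 0.574 of S100a9 and nrs1 101, 30.9 and 79.3 (-7.13 ± 0.41, adjusted p = 7.85e-26, scc7 minus nrs1). At carbon day 5 scc7 had 11.5 and 11.6 and nrs1 209 and 222 (-4.22 ± 0.45, adjusted p = 4.98e-13). Stfa3 at carbon day 5 had 0.739 and 0.686 in scc7 and 21.5 and 22.05 in nrs1 (-4.93 ± 0.34, adjusted p = 2.27e-21), and Cxcl3 2.197 and 2.09 and 67.1 and 72.99 (-5.03 ± 0.45, adjusted p = 7.56e-16). No arrays of the 2 tumours overlapped in these genes. Ccl3 was -0.23 ± 0.35 (adjusted p = 0.599) and -0.25 ± 0.38 (adjusted p = 0.606) in the same comparisons. Squamous markers also differed between these tumours, as given above. At carbon day 5 T and NK cell markers were at 4.77 log2 in scc7 and 1.37 in nrs1, and macrophage genes at 5.41 and 3.71. At gamma day 8 T and NK cell markers were at 2.84 in scc7 and -0.30 in nrs1, and macrophage genes at 4.75 and 2.87. The part of these lists in the members' values was not tested.

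Over groups, the span of mean levels was widest for S100a9 on gamma arrays, 8.79 log2 between scc7 after 30 Gy at day 8 (-1.16) and rif after 50 Gy at day 22 (7.63). For Cxcl3 it was 7.85 on gamma and 7.71 on carbon arrays, and the lowest and highest groups were scc7 and nrs1 on both. Ccl3 spanned least on carbon arrays, 2.35 log2, between unirradiated mmca (1.21) and mca4 at hour 6 (3.56). Nrs1 had the highest carbon group of Cxcl3, S100a8, S100a9 and Stfa3.

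The closest pairs on gamma arrays, once each tumour's mean was taken out, were S100a8 with S100a9, Cxcl2 with Cxcl3 and Csf2 with Stfa3. Without centring Cxcl2 and Cxcl3 had r = 0.674 on gamma arrays, below the 0.796 of Cxcl3 and S100a9. With each tumour's mean taken out, S100a8 and S100a9 had r = 0.948 over 34 gamma groups and 0.906 over 20 carbon groups. Cxcl2 and Cxcl3 had r = 0.925 over 32 gamma groups and 0.930 over 20 carbon groups, and Csf2 and Stfa3 0.848 and 0.859 over 34 and 20. Other pairs were also close, with 0.883 for Cxcl2 and S100a9 and 0.822 for Cxcl3 and S100a9 on carbon arrays, and 0.796 for Ccl3 and Csf2 on gamma arrays. Stfa3 and Cxcl2 had 0.276 on gamma and -0.605 on carbon arrays. Groups share tumours and controls, so these are descriptions. Of all genes with a value on every array, those most like S100a8 without centring were S100a9 (r = 0.972 over 34 gamma groups), the decoy IL-1 receptor gene Il1r2 (0.867) and the neutrophil collagenase gene Mmp8 (0.847). Cxcl3 was most like the CXCR2 ligand genes Cxcl5 (0.951) and Ppbp (0.906) and Il1r2 (0.925). Ptx3 was most like Cpxm1 (0.926), Sulf1 (0.926) and Lox (0.908), Lox encoding the collagen crosslinking enzyme lysyl oxidase, and on carbon arrays like Lum (0.845 over 20 groups), which encodes the matrix protein lumican. Stfa3 was most like Dapk2 (0.784), Scel (0.735) and Sat1 on gamma arrays and Nectin1, Scel (0.876) and Sik1 on carbon arrays, Scel encoding sciellin of the cornified envelope.

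**Figure D5:**
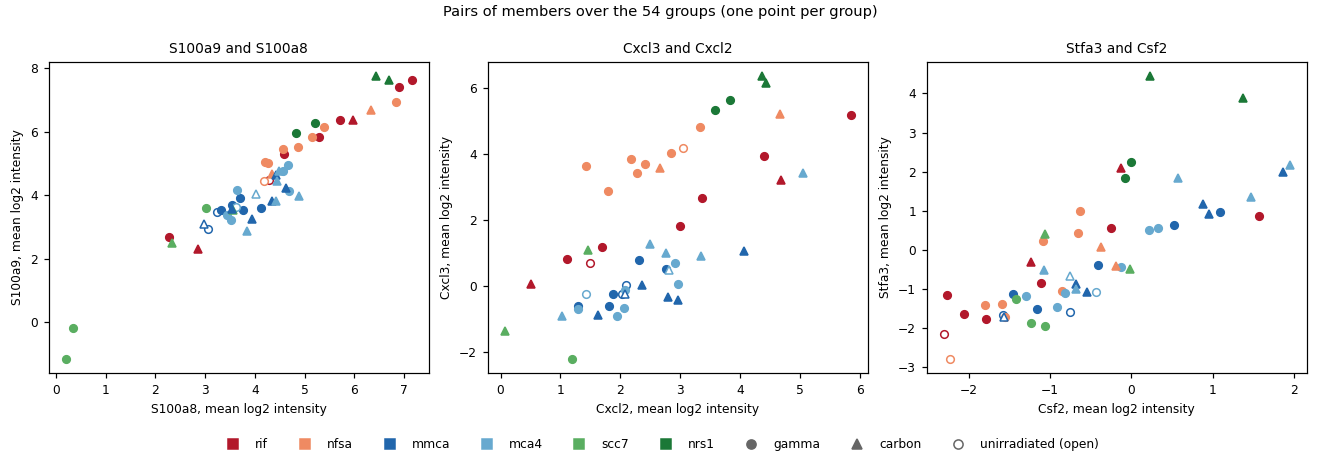
Mean log2 intensity of S100a9 against S100a8, Cxcl3 against Cxcl2 and Stfa3 against Csf2 over the 54 groups, with colours for tumours, circles for gamma and triangles for carbon arrays and open symbols for unirradiated groups. The S100 pair lies along 1 line for all tumours, while Cxcl3 is offset upwards in nfsa and nrs1.

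Over comparisons of 1 group with 1 other, 140 member changes passed with S100a9 in nfsa at gamma day 1 left out, 115 of them rises and 25 falls. Pooled over all of these comparisons, 16.5% of the tests of all genes were rises and 20.3% falls. Stfa3 rose in 23 and fell in 1 of 42 comparisons, Csf2 rose in 20 and fell in 3, and Ccl3 rose in 19 and fell in 1. S100a9 rose in 13 and fell in 2 of 39, and S100a8 rose in 14 and fell in 2. The 39 still hold the gamma day 1 groups of S100a9 in rif, mmca and mca4, which enter the mean already known. Cxcl2 rose in 10 and fell in 5, Cxcl3 rose in 7 and fell in 3 of 40, and Ptx3 rose in 9 and fell in 8. These comparisons share controls and arrays.

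Of the wider neutrophil list 19 of 32 genes were tested. Defining genes such as Ly6g and Fpr1 had no probe with their symbol, and Cxcr2, Mpo, Elane and Camp did not pass the filter. At gamma day 1, 9 rose, 2 fell and 8 did not pass (median 0.23), beside 24.8% and 34.7% of all genes that rose and fell, with Slfn4, a Schlafen gene of myeloid cells, at 1.27 ± 0.13 (adjusted p = 4.29e-13), Retnlg, the resistin-like gamma gene, at 0.86 ± 0.27 (adjusted p = 0.00489) and Csf3r, the G-CSF receptor gene, at 0.48 ± 0.068 (adjusted p = 7.24e-09), while Cd177, a neutrophil surface gene, gave -0.52 ± 0.099 (adjusted p = 6.83e-06). At days 8 to 25, 8 rose and 6 fell, beside 34% and 39.6% of all genes, with Ltf, the lactoferrin gene, at 2.33 ± 0.15 (adjusted p = 1.43e-22) and Cd177 at -1.06 ± 0.098 (adjusted p = 1.54e-15). At carbon hour 6, 6 rose and none fell, beside 5.06% and 4.48% of all genes, led by Mmp8 at 1.86 ± 0.24 (adjusted p = 1.2e-08) and Clec4d, a myeloid lectin gene, at 1.51 ± 0.20 (adjusted p = 3.62e-08). At carbon day 20, 8 rose and 6 fell, beside 27.3% and 43.7% of all genes, from Ltf at 6.10 ± 0.27 (adjusted p = 2.42e-31) to Cd177 at -2.64 ± 0.19 (adjusted p = 4.64e-20). Ltf is also made by glandular epithelium. In nfsa at day 4, 4 rose and 3 fell, from Slfn4 at 2.48 ± 0.26 (adjusted p = 9.69e-13) and Csf3r at 1.18 ± 0.14 (adjusted p = 1.44e-11) to the gelatinase gene Mmp9 at -3.23 ± 0.25 (adjusted p = 6.41e-18).

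Of 31 genes of acute inflammation 25 were tested, and the shares of all genes that rose and fell are those given above for each comparison. At gamma day 1, 7 rose and 6 fell (median 0.01), with the serum amyloid gene Saa3 at 1.26 ± 0.13 (adjusted p = 1.73e-13), the monocyte chemokine gene Ccl2 at 0.78 ± 0.10 (adjusted p = 5.97e-10) and the cyclooxygenase gene Ptgs2 at -0.57 ± 0.13 (adjusted p = 9.56e-05). At days 8 to 25, 12 rose and 4 fell, with Nfkbiz at 1.65 ± 0.089 (adjusted p = 4.63e-27), Cxcl5 at 1.52 ± 0.14 (adjusted p = 3.87e-16) and Il1b at 1.18 ± 0.14 (adjusted p = 5.88e-12). At carbon hour 6, 8 rose and none fell, among them Ccl7 at 1.44 ± 0.21 (adjusted p = 4.86e-07), Ccl2 at 1.44 ± 0.18 (adjusted p = 2.27e-09) and Il6 at 1.38 ± 0.25 (adjusted p = 3.82e-05). At carbon day 1, 3 rose (Ccl7, Saa3, Ccl2) and 1 fell. At days 3 to 5, 12 rose and 3 fell, and at day 20, 14 rose and 5 fell, from the IL-1 receptor antagonist gene Il1rn at 1.99 ± 0.14 (adjusted p = 2.34e-20) to Cxcl1, another CXCR2 ligand gene, at -0.90 ± 0.24 (adjusted p = 0.000789). Of 7 receptor genes only Ccr1, Csf2ra and Tlr4 were tested. All 3 rose in both later gamma and later carbon means, Csf2ra, which encodes a chain of the GM-CSF receptor, by 2.02 ± 0.15 (adjusted p = 4.54e-20) at carbon day 20, and none passed at carbon hour 6, where Tlr4 gave 0.29 ± 0.10 (adjusted p = 0.0663).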

How the data were processed

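Tumour RNA was extracted, labelled with Cy5 and hybridised to CodeLink mouse arrays, 1 colour, per the labels' protocols. The value of each probe is a linear intensity as deposited, and the authors' scaling and background steps are not given in the sources used here. All 121 arrays (81 gamma, 40 carbon) were used, and their number limits the precision. Intensities were floored at 0.1269 (the 5th percentile of positive values) and put on a log2 scale, and missing values stayed missing. Of 36227 probes, 21615 had 1 gene symbol, 681 several and 13931 none. A probe stayed in where 90% of arrays gave a value and its mean exceeded the 20th percentile of means, and the brightest one stood for its gene, which left 12962 genes. Array medians ran from 1.31 to 1.85 on gamma arrays and from 1.04 to 1.07 on carbon arrays.

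A group-means model was fitted over all arrays in limma 3.58.1 (R 4.3.3) with a variance trend and 67 residual degrees of freedom, and p-values were adjusted (Benjamini-Hochberg) over all genes, with a threshold of 0.05. The fit was tested on simulated data. Members, gene lists and tests were chosen with earlier results of these data known. From each list up to 4 risers and 4 fallers past the threshold could be named, and the 3 genes most alike to a member. Same-numbered arrays deviated together in carbon mca4 (15 of 15 pairs of groups, r = 0.14 to 0.376) but not throughout any other tumour with 3 or more pairs (12 of 15 in carbon mmca). Alternatives covered normalization, floor, filters, missing values, the variance model, the fit's arrays, pairing and each array left out. Plots used Python 3.11.15 and matplotlib 3.10.9.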

Additional observations from a re-analysis of the deposited data

Results flagged for a closer look

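5 changes at day 1 after gamma rays differed between tumours in the limma test of the difference itself (n = 2 arrays per group). Of all genes 21.9% passed the test of fibrosarcomas against mammary carcinomas, 20.3% that of rif against nfsa and 35.7% that of mmca against mca4. Those tests were passed by 1, 2 and 2 of 8 members, counts that do not set the members apart from all genes. The Stfa3 change was higher by 0.7401 log2 in the fibrosarcomas rif and nfsa than in the mammary carcinomas mmca and mca4. The Cxcl2 change was higher by 2.083 and the Cxcl3 change by 2.006 in rif than in nfsa, with opposite directions in the 2 tumours. The Ptx3 change was higher by 1.909 in mmca than in mca4, and the Csf2 change by 0.9132. The Ptx3 difference was 1.05 (adjusted p = 0.157) without the 50 Gy pair of mmca. The Stfa3 and Csf2 differences were lost on dropping single arrays, as given above.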

How the results depend on the processing

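Counts are of members called, of 8, with all genes called after them; S100a9 counts among the 5 of gamma day 1 and the 142 of single groups. With genes valued on every array the members called were 2 of 5 at gamma day 1, 3 of 7 at days 8 to 25, 1 of 3 in nfsa at day 4, 2 of 5 at carbon days 3 to 5 and 3 of 6 at day 20, and all genes called were 4865 (of 7638), 5988 (of 9480), 4779 (of 7581), 4960 (of 7641) and 5796 (of 9198), beside 4207 (of 6488) for 70 against 30 Gy and 687 (of 1036) at carbon day 1; fewer genes were tested there. With 1 value per group members fell to 1 at gamma day 1, 3 at days 8 to 25, 0 for 70 against 30 Gy (1 otherwise) and 3 of 6 at carbon hour 6, with 1017, 3545, 1788 and 316 genes (1236 otherwise at hour 6) and 143 at carbon day 1. That 1 member at gamma day 1 was S100a9, whose value was already known. Without S100a9, 0 members passed there with 1 value per group, and 1 with genes valued on every array. Array weights gave 2 members for 70 against 30 Gy and 5 at carbon day 1, with 3429 genes at hour 6 and 3448 at day 1. Fitting carbon apart gave 7 members at day 1 and 8 at days 3 to 5, with 3566 genes at hour 6 and 3498 at day 1. For 70 against 30 Gy, quantile normalization, missing values at the floor and both together gave 2 members each, and both together left 3 of 5 differences between tumours. The causes were not tested. S100a8 in mmca at carbon day 5 was reversed to -2.05 (adjusted p = 0.0409) with missing values at the floor and quantile normalization, and Cxcl2 at gamma days 8 to 25 to -0.21 (adjusted p = 0.316) without rif. Omitting rif or 50 Gy pairs was chosen after seeing the data. Quantile normalization moved the median of all genes to 0.168 from -0.0098 for 70 against 30 Gy and to -0.22 from -0.0728 in nfsa at day 4. With missing values at the floor as well, 63.8% of calls for 70 against 30 Gy were higher, against 47.3%.

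Leaving out each array in turn gave 4 to 5 members (7074 to 7623 genes) at gamma day 1, 6 to 7 (9084 to 9552) at days 8 to 25, 1 to 1 (5863 to 6320) for 70 against 30 Gy, 2 to 3 (6094 to 7711) in nfsa at day 4, 4 to 5 (721 to 910) at carbon hour 6, 0 to 0 (570 to 660) at day 1, 4 to 5 (6798 to 7434) at days 3 to 5 and 6 to 6 (8658 to 8778) at day 20. Calls in single groups ran from 133 to 145 (142 with all), differences between tumours from 3 to 5 and differences before irradiation from 20 to 22. With the replicate number as a block, Cxcl2 at gamma days 8 to 25 gave 0.34 (adjusted p = 0.0609) and was lost, and Ccl3 in nfsa at day 4 gave 0.71 (adjusted p = 0.031) and was gained; the block changed no carbon call of a mean. No other probe per member could be tried, since each had 1.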
